A study of Homo sapiens with 4 samples.

Results

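The protein kinase C genes PRKCA, PRKCB, PRKCD, PRKCE, PRKCH, PRKCI and PRKCZ are described here by their open chromatin in grafts of Panc1, a human pancreatic ductal adenocarcinoma line, from mice given inflachromene or carrier alone. The compound binds the chromatin proteins HMGB1 and HMGB2. Every peak over one of the 7 genes or within 20 kb of it was taken, which gave 186 of the 128195 regions that the 4 peak lists form when overlapping peaks are joined. Of these 186, 83 held a peak in every library (consensus regions, 50771 in the series), and 103 did not. Single-nucleus ATAC-seq, in which a transposase inserts into open DNA, was run on 2 Inflachromene libraries (mice 11 and 35) and 2 Carrier libraries (mice 12 and 31), each from 1 mouse per the titles, and the labels give no dose, time or age. All grafts derive from the same line, which is a limit of the model. The genes were chosen by measured values of these data: a region within PRKCE had come up as higher under Inflachromene, in counts of the same libraries. Values of Inflachromene against Carrier are therefore a description, and nothing is supported with them.

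Protein kinase C enzymes are serine and threonine kinases that pass on signals from the membrane lipid diacylglycerol. The conventional forms, alpha (PRKCA) and beta (PRKCB), need both calcium and diacylglycerol. The calcium-independent forms, delta (PRKCD), epsilon (PRKCE) and eta (PRKCH), respond to diacylglycerol without calcium, and the phorbol ester tumour promoters act on both of these classes. The atypical forms, iota (PRKCI) and zeta (PRKCZ), respond to neither signal and are steered by protein partners such as PAR6 and p62, with a known role in the polarity of epithelial cells.

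The libraries held 27088391 and 39947056 counts (Inflachromene 11 and 35) and 33336531 and 29295799 counts (Carrier 12 and 31). Barcodes with at least 2000 counts in consensus regions, called deep, numbered 1484 and 2021 against 2055 and 913, and carried 95.4% to 98.1% of these counts. No doublet caller was run, so barcodes that hold more than 1 nucleus were not removed. Inflachromene 11 and Carrier 12 shared 1209 barcode names, of which 1115 were deep in Carrier 12 alone. Carrier 12 and Carrier 31 shared 357, 346 of them deep in Carrier 31 alone, and Inflachromene 11 and Carrier 31 shared 155, 144 of them deep in Carrier 31 alone. The other 3 pairs shared 25 to 29 names, and between 2 and 10 names were deep in both libraries of a pair. Inflachromene 35 had the most peaks, 96240 against 75717 to 78639 in the other 3. All 5 carcinoma markers looked for (KRT8, KRT18, KRT7, KRT19 and EPCAM) had a consensus region over the gene or within 1 kb. So did 4 of 4 endothelial and 4 of 5 immune markers, and 3 of 5 fibroblast markers (DCN and LUM had none), so such regions did not tell these cells apart and the label was taken as given.

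The promoters are shown first, since the genes differ in level at their start sites. RefSeq (GRCh38.p14) lists 12 start sites for the 7 genes, all on the plus strand. Of these, 5 promoters follow in order of accessibility, each from 250 bases before to 50 after the start site, with matches to 7 short motifs in capitals. They lie at chr3:170222174-170222473 (PRKCI), chr1:2050161-2050460 (PRKCZ), chr2:45651425-45651724 (PRKCE), chr14:61321329-61321628 (PRKCH) and chr16:23835733-23836032 (PRKCB).
PRKCI: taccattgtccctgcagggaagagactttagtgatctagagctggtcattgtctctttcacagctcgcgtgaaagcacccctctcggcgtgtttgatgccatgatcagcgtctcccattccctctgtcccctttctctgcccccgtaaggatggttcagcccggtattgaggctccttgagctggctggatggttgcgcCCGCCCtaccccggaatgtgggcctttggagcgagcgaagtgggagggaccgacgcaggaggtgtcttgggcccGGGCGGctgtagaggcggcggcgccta
PRKCZ: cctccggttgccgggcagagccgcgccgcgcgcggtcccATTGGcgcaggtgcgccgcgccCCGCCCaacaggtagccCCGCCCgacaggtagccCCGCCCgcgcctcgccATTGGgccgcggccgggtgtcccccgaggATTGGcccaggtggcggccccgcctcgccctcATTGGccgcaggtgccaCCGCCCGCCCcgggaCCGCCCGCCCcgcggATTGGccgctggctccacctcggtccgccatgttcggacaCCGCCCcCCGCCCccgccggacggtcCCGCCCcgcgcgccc
PRKCE: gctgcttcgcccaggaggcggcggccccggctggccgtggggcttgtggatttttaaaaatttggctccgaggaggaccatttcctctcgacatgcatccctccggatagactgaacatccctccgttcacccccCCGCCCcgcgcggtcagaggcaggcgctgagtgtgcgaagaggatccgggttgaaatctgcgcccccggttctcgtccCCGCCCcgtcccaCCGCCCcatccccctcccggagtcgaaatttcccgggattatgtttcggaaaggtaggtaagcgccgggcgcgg
PRKCH: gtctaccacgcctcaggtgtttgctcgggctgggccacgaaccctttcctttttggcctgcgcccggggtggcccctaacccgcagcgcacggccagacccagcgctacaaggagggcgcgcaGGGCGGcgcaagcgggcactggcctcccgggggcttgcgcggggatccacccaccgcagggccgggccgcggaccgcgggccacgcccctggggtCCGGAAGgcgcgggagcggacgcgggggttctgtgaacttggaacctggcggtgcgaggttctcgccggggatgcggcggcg
PRKCB: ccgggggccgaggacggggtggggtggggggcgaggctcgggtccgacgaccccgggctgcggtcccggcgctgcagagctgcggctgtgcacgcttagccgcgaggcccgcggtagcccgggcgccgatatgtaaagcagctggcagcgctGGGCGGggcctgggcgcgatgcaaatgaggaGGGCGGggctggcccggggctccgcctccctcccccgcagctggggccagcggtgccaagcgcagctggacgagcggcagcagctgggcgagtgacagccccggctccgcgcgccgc

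Both strands were searched. The promoter motifs were the GC box, spelled GGGCGG, the CCAAT box, spelled as its name, and the TATA box, spelled TATAAA. The factor motifs were that of AP-1, spelled TGANTCA, the E-box, spelled CACGTG, that of the ETS family, spelled CCGGAAG, and the cyclic AMP element, spelled TGACGTCA. No matches of different motifs overlapped. PRKCZ held 10 GC boxes and 5 CCAAT boxes. PRKCE held 3 GC boxes, PRKCI and PRKCB 2 each, and PRKCH 1 together with 1 ETS match. The other 4 motifs had no match in these 5 windows. Of 22078 promoters of protein-coding genes, 56.3% held a GC box, 34.7% a CCAAT box and 12.8% the ETS motif. The TATA box was in 9.50%, the E-box in 8.32%, AP-1 in 6.16% and the cyclic AMP element in 2.25%. The share of G and C ran between 60.7% for PRKCI and 81.0% for PRKCZ, with the median of all promoters at 62.3%. The ratio of observed to expected CpG was 0.690 for PRKCI, below the median of 0.736, and 0.992, 0.962, 0.898 and 0.857 for PRKCZ, PRKCE, PRKCH and PRKCB.

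Accessibility at the start sites spanned a wide range between the genes. To compare genes, levels are given as CPM per kb, that is CPM over the consensus regions with edgeR's TMM factors (counts scaled to library size), divided by the width of the region. PRKCI stood highest, at 105 and 87.3 CPM per kb in Inflachromene 11 and 35 and 89.4 and 101 in Carrier 12 and 31. Its mean of 95.7 lay above 94.5% of the 11004 start-site regions of protein-coding genes. PRKCZ had 45.6 and 40.0 CPM per kb under Inflachromene and 36.8 and 47.9 under Carrier, and PRKCE had 36.1 and 38.7 against 29.6 and 37.2. These 2 genes overlapped in their libraries and lay near the middle of all start sites (above 55.6% and 45.4%).

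PRKCD followed with 27.7 and 22.6 CPM per kb under Inflachromene and 27.0 and 28.6 under Carrier. PRKCA had 26.7 and 22.9 against 20.4 and 25.6, so the libraries of PRKCD and PRKCA overlapped as well. PRKCH stood lower, at 9.64 and 7.09 CPM per kb against 8.87 and 7.54, above 6.71% of start-site regions. The PRKCB start site had a peak in Inflachromene 11 (5.09 CPM per kb) and Carrier 31 (4.18 CPM per kb) and in neither of the other libraries, and a region without a peak has no count. The order of the levels was thus the atypical PRKCI, then PRKCZ with PRKCE, then PRKCD with PRKCA, then PRKCH and PRKCB.

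**Figure D1:**
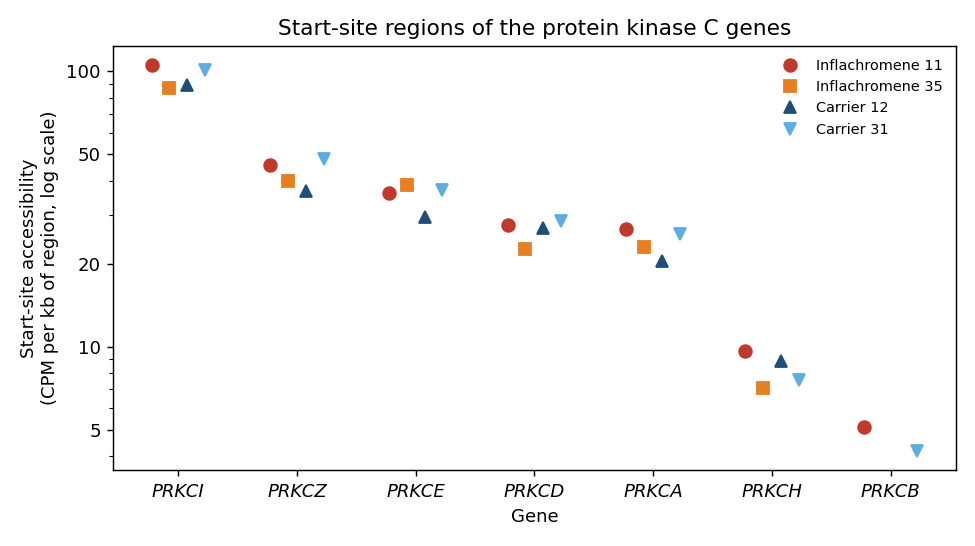
Start-site accessibility of the 7 genes in CPM per kb (log axis), with 1 point per library and genes ordered by level. PRKCI sits between 87.3 and 105 in the 4 libraries and PRKCH between 7.09 and 9.64, while PRKCB has points for the 2 libraries with a peak.

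Between Inflachromene and Carrier the groups overlapped at each of the 6 consensus start-site regions. The log2 fold change, Inflachromene over Carrier, was 0.17 for PRKCE (standard error 0.17, 95% interval -0.21 to 0.54) and 0.11 for PRKCA. It was 0.02 for PRKCI and for PRKCH, 0.01 for PRKCZ and -0.15 for PRKCD. The median of the 6 was 0.02, beside 0.05 over the start sites of all 10464 protein-coding genes with such a region, of which 67.0% lay above 0. With an offset for the 10 Mb window around each region, the value for PRKCE was -0.06. The regions of PRKCE, PRKCH and PRKCZ also hold the start sites of LOC102724965, PRKCH-AS1 and PRKCZ-DT, so their levels cannot be assigned to 1 gene.

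Of the other start sites of PRKCZ, those at 2073664 and 2074071 had no peak within 1 kb in any library, and that at 2104716 had a peak in 1 library. The second listed start of PRKCD (53161507) lies within 1 kb of the same region as the first, and that at 53168703 had no peak. The most open region of the whole set lay inside PRKCZ at none of the listed starts (chromosome 1, 2132925 to 2133873). It had 102 and 96.6 CPM under Inflachromene and 84.6 and 96.3 CPM under Carrier, apart by a small margin. Per kb it stood above 99.6% of consensus regions away from start sites.

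Along their length, start sites included, the genes differed in how many open regions they held. PRKCH (chromosome 14, 61187468 to 61550976) and PRKCZ (chromosome 1, 2048504 to 2185395) had 5.23 and 5.11 consensus regions per 100 kb. PRKCA (chromosome 17, 66302613 to 66810743) had 3.74, PRKCD (chromosome 3, 53161209 to 53192717) 3.17, PRKCE (chromosome 2, 45651279 to 46187990) 2.79 and PRKCI (chromosome 3, 170222424 to 170305977) 2.39. PRKCB (chromosome 16, 23835983 to 24220611), with 1.04, was at the median of genes of at least 200 kb (1.03, n = 1396). The annotation used gives gene bounds without exons, so regions inside a gene are called that and not intronic. PRKCD held no region inside the gene apart from its start site.

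PRKCE, the epsilon form, is the gene that the set was built around. Its region 341 kb past the start site (chromosome 2, 45991924 to 45992876) had 7.45 and 15.2 CPM in Inflachromene 11 and 35, against 2.32 and 2.83 CPM in Carrier 12 and 31. Both Inflachromene libraries lay above both Carrier libraries, and Inflachromene 35 stood well above Inflachromene 11. The means were 11.3 ± 5.52 and 2.57 ± 0.362 CPM (SD, n = 2 each). On the log2 scale Inflachromene over Carrier was 2.15 (0.35 standard error, 95% interval 1.36 to 2.94), the highest of the 50771 consensus regions (0.00197% reached it). The counts behind it were 176 and 506 under Inflachromene and 70 and 74 under Carrier.

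The authors' peaks at this place had similar bounds in each library, 934 and 917 bp wide under Inflachromene and 750 and 821 bp under Carrier. The next region (45993127 to 45994067) had 4.91 and 5.06 CPM under Inflachromene and 5.86 and 3.94 CPM under Carrier. Its groups overlapped and its log2 fold change was 0.02 (standard error 0.27). The signal was spread over many nuclei: 83 of 1484 and 218 of 2021 deep barcodes had a count under Inflachromene, against 38 of 2055 and 34 of 913 under Carrier, and no barcode held more than 7 counts. As a share this was 5.59% and 10.8% against 1.85% and 3.72%, with median depths of 16589 and 16859 against 14323 and 30900 counts. With every deep barcode thinned to 2000 counts it was 1.35% (95% exact Clopper-Pearson interval 0.825 to 2.07) and 2.47% (1.84 to 3.25) under Inflachromene, and 0.438% (0.200 to 0.830) and 0.548% (0.178 to 1.27) under Carrier. These intervals cover counting error only.

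**Figure D2:**
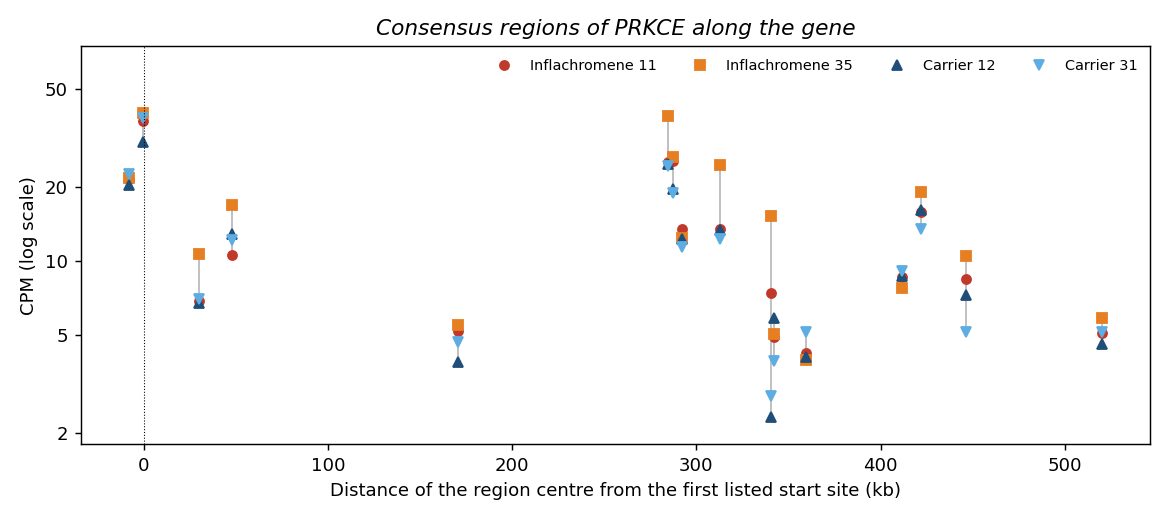
CPM (log axis) of the 16 consensus regions of PRKCE by distance from the start site in kb, with 1 point per library and a grey line over their range. At 341 kb the Inflachromene points (7.45 and 15.2) lie above the Carrier points (2.32 and 2.83), and the neighbouring region does not separate them.

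Most regions of PRKCE had values a little above 0. Of the 15 at the start site or within the gene, the one at 341 kb among them, 13 had a log2 fold change above 0, and the median was 0.23, beside 0.01 over all consensus regions. Both Inflachromene libraries lay above both Carrier libraries in 7 of the 15 and below them in 1, where such separation held for 14.0% (higher) and 17.5% (lower) of all consensus regions. The region at 45936001 to 45936922, the most open within the gene, had 25.4 and 38.9 CPM under Inflachromene and 24.9 and 24.3 CPM under Carrier (log2 fold change 0.39, standard error 0.21, and 0.04 without Inflachromene 35). At 45938530 to 45939614 the levels were 25.6 and 26.4 CPM against 19.6 and 18.9 CPM (0.44, 0.17, and 0.21 with the window offset). At 46073254 to 46074219 they were 15.8 and 19.1 CPM against 16.2 and 13.5 CPM, with overlapping groups. The lowest value in the gene was -0.17 (standard error 0.25), at 46010529 to 46011463.

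Counts around PRKCE were also higher under Inflachromene. The 181 other consensus regions of the 10 Mb windows that hold PRKCE summed to 3401 and 3443 CPM under Inflachromene and 2813 and 3040 CPM under Carrier, a log2 ratio of 0.23. With the window offset, the median over the 15 PRKCE regions was -0.00 and 7 of them lay above 0, while the region at 341 kb stayed at 1.92 (standard error 0.36). Without Inflachromene 35 the median was 0.06, with 10 of 15 above 0, and the region at 341 kb stood at 1.53. DNA copy number was not measured, and its part in these levels was not tested.

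The nuclei were also divided by their share of counts on the short arm of chromosome 9 (9p, up to 43 Mb), where no protein kinase C gene lies, since these grafts held nuclei with fewer counts there. Deep nuclei with less than 1.2% of their counts on 9p made up 37.5% and 42.2% under Inflachromene and 12.3% and 28.3% under Carrier. In them the PRKCE region at 341 kb had 13.4 and 16.8 CPM (without TMM factors) under Inflachromene and 6.32 and 3.64 CPM under Carrier. In the remaining deep nuclei it had 3.72 and 14.0 CPM against 1.96 and 2.63 CPM. The Inflachromene libraries stood above the Carrier libraries in both kinds of nuclei. These are the counts that chose the region, so the order is a description only. In the remaining nuclei Inflachromene 11 and Carrier 31 had overlapping exact Poisson intervals (2.77 to 4.87 against 1.97 to 3.45 CPM), and Inflachromene 35 stood well above both. Restricted to nuclei with at least 1.2% on 9p, the log2 fold change was 2.005 (standard error 0.52). It did not pass (edgeR adjusted p = 0.9999), and the region did not pass over all barcodes either (edgeR adjusted p = 0.9996). Whether the mix of nuclei accounts for the gap was not tested.

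Nuclei low on 9p were compared with the others of the same library in a single fit over 48812 regions, with library as a block and chromosome 9 left out. This contrast took no part in choosing the genes, but the counts of the PRKCE region at 341 kb did. Nuclei under 1.2% on 9p were more common under Inflachromene, so values for that region are a description here too. With 9p-low nuclei set at under 0.75 times the library median, they made up 21.0% and 12.1% of deep nuclei under Inflachromene and 11.5% and 20.7% under Carrier. This limit lay below the 1.2% used above in each library, so the other nuclei still held some with less than 1.2% on 9p. These were most common under Inflachromene, where 37.5% and 42.2% of all deep nuclei lay below 1.2%. With the limit at 0.75 times the library median, edgeR called 1 of the 83 regions of the 7 genes (1.205%). Of all regions 3.92% were called, 2.27% as higher and 1.65% as lower in 9p-low nuclei. The called region of these genes lies in PRKCH (chromosome 14, 61505814 to 61506747, 185 kb past the listed start site). Its level was 5.82, 5.57, 9.45 and 4.49 CPM in 9p-low nuclei of Inflachromene 11, Inflachromene 35, Carrier 12 and Carrier 31, against 13.4, 19.995, 12.5 and 10.6 CPM in the other nuclei. It fell in 4 of 4 libraries (-1.16 on the log2 scale, 0.24 standard error, edgeR adjusted p = 0.00693). The call was lost without Inflachromene 11 (adjusted p = 0.0764) and at a threshold of 0.65 (0.289). Lower values in 9p-low nuclei were not confined to this region: 20 of the 25 PRKCH regions, flanks included, lay below 0. Their median was -0.19, beside -0.002 in the series.

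With the common limit of 1.2%, which was chosen after the shares were seen, 4 of the 83 regions passed, where 8.24% of all regions did. They were the PRKCH region (log2 fold change -0.57, adjusted p = 0.0440), a region within PRKCZ (chromosome 1, 2180077 to 2181120, -0.61, 0.0407), the PRKCE start site (0.30, 0.0466) and the PRKCE region at 341 kb (1.01, standard error 0.26, adjusted p = 0.0167). The last of these was higher in nuclei low on 9p in 4 of 4 libraries. With the limit at 0.75 of the library median it stood at 0.71 (standard error 0.31) and did not pass (adjusted p = 0.247): it was then lower in the 9p-low nuclei of Inflachromene 35, with 10.9 CPM against 16.3 in the others. Without Inflachromene 35 the same fit gave 1.24 (standard error 0.33, edgeR adjusted p = 0.00956), which passed. The counts of this PRKCE region chose it, so its values between nuclei are a description and nothing is supported with them.

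**Figure D3:**
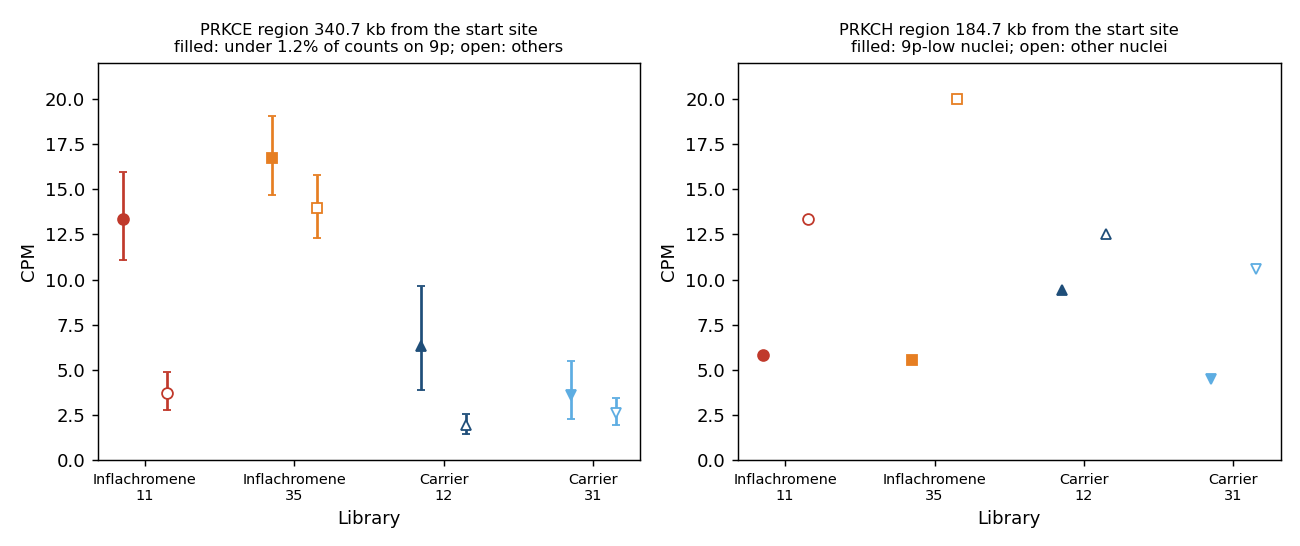
CPM by library of the PRKCE region at 341 kb (left, bars are 95% exact Poisson intervals of the counts) and of the PRKCH region at 185 kb (right), in nuclei low on 9p (filled; under 1.2% at left, under 0.75 times the library median at right) and other nuclei (open). In the left panel filled points lie above open ones in each library, and in the right one they lie under them.

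PRKCH, the eta form, held the most consensus regions, 25 with the flanks. Of the 19 at the start site or within the gene, 15 had a log2 fold change above 0, with a median of 0.12, and 10 of 19 and 0.02 with the window offset. Leaving out 1 library turned the sign of that median, to -0.12 (9 of 19 above 0) without Inflachromene 35 and -0.01 (9 of 19) without Carrier 31. The most open of them (61537336 to 61538300, a region over PRKCH-AS2) had 16.5 and 27.9 CPM under Inflachromene and 21.3 and 17.5 CPM under Carrier, with overlapping groups, as they were at the next most open, 61188830 to 61189722 and 61525168 to 61526066. Inflachromene 35 was the highest library in 18 of the 25 regions, a larger share than the 28.9% of all consensus regions where it was highest. Groups were apart at 61355587 to 61356578, with 3.81 and 3.86 CPM under Inflachromene against 2.65 and 2.41 CPM under Carrier (log2 fold change 0.60, standard error 0.25), but the value was 0.18 (0.32) in nuclei with at least 1.2% on 9p. The lowest value was -0.29 (standard error 0.21), at 61456357 to 61457311. RefSeq lists the start of PRKCH inside its outer bounds, and the regions 40.8 and 42.2 kb before it lie at TMEM30B, another gene.

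PRKCA, the conventional form alpha, had 18 consensus regions within the gene. The 3 most open lay at 66539832 to 66540776 (28.7 and 30.3 CPM under Inflachromene, 30.7 and 25.1 CPM under Carrier), 66466669 to 66467648 and 66459507 to 66460426, and their groups overlapped. A weak region 389 kb past the start site (66691332 to 66692353) had 5.54 and 5.51 CPM under Inflachromene against 3.04 and 2.14 CPM under Carrier. Its log2 fold change was 1.09 (standard error 0.27), the highest in the gene, and it was 0.68 in deep nuclei that were not 9p-low and 0.32 (0.36) in those with at least 1.2% on 9p. In 9p-low nuclei the region had 10.4 and 15.04 CPM under Inflachromene against 3.26 and 1.75 CPM under Carrier, and in the others 4.38 and 4.28 CPM against 3.09 and 2.34 CPM. The region was not called between 9p-low and other nuclei (edgeR adjusted p = 0.186). Nor was the difference of that effect between Inflachromene and Carrier (edgeR adjusted p = 0.783). The lowest value in the gene was -0.43 (0.28) at 66727707 to 66728603. Over the 19 regions of PRKCA 12 lay above 0 and the median was 0.06, against 8 of 19 and -0.03 without Inflachromene 35, and 10 of 19 and 0.01 without Carrier 31.

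**Figure D4:**
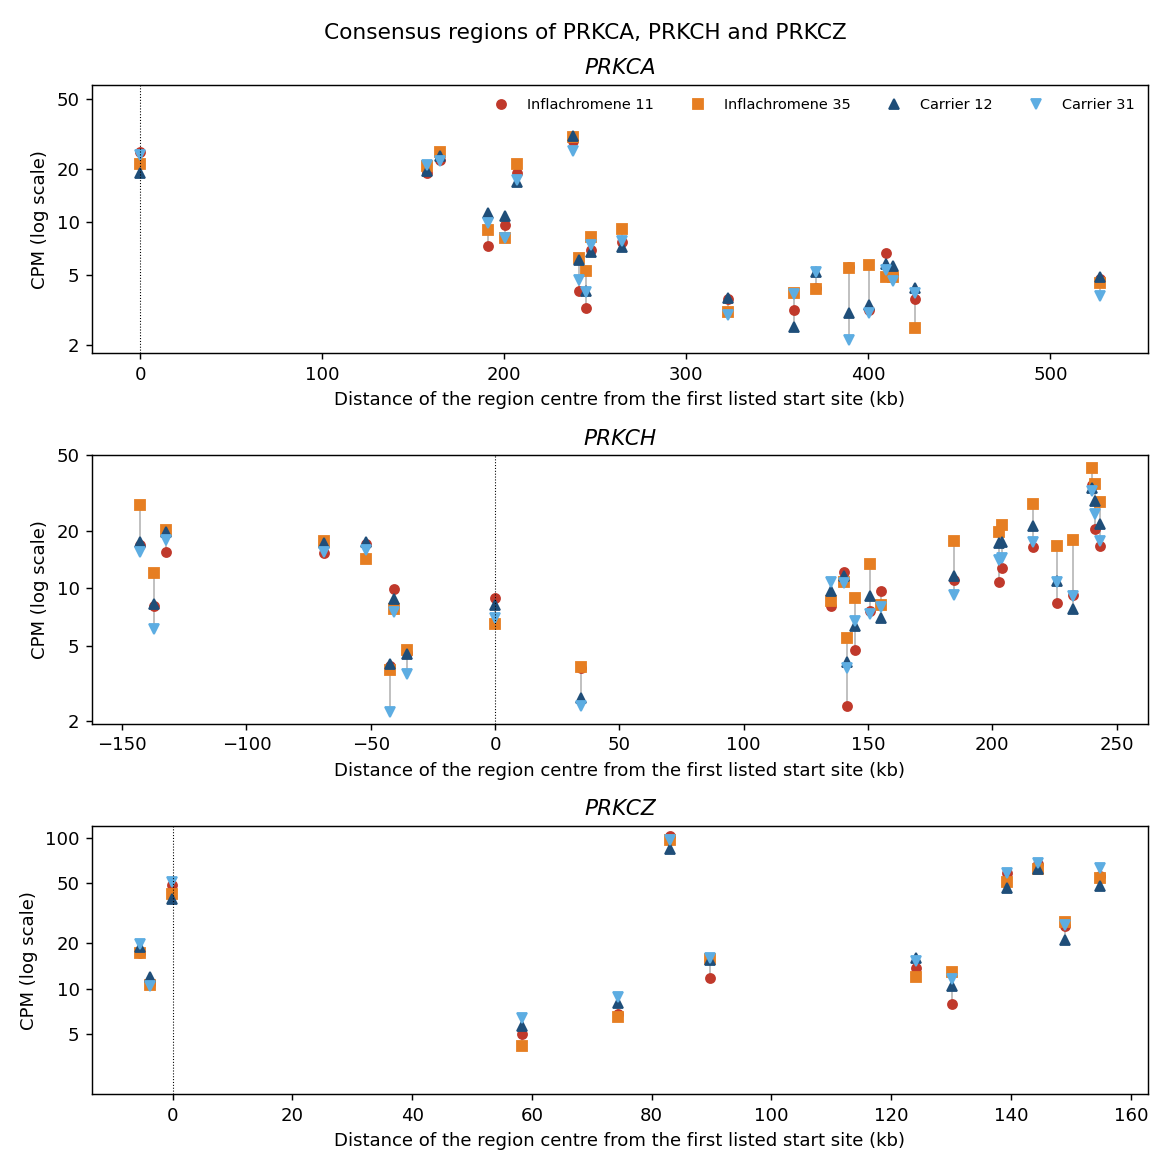
CPM (log axis) of the consensus regions of PRKCA, PRKCH and PRKCZ by distance from the first listed start site in kb, with 1 point per library. Most groups of points overlap, and the PRKCZ region at 82.99 kb is the highest of the 3 genes.

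At their start sites and within the gene, PRKCZ, PRKCB, PRKCI and PRKCD had more values below 0 or as many. PRKCZ had 2 of 7 regions above 0 and a median of -0.20. After the region at 82.99 kb, its most open ones within the gene were 2174045 to 2174972 (13.8 and 12.02 CPM against 16.1 and 15.2 CPM, log2 fold change -0.28) and 2139599 to 2140578 (-0.20). Its lowest value was -0.39 (standard error 0.25), at 2108307 to 2109248. PRKCB, the conventional form beta, had 4 consensus regions, each below 0, from -0.47 to -0.23. The most open of these (24036399 to 24037313) had 8.42 and 8.26 CPM under Inflachromene and 10.2 and 9.40 CPM under Carrier (log2 fold change -0.23). PRKCI had a single consensus region within the gene (170258154 to 170259142), with 4.91 and 4.37 CPM against 4.40 and 5.39 CPM. The PRKCD flank region at 53195626 to 53196546 had 11.6 and 9.43 CPM under Inflachromene and 16.7 and 12.9 CPM under Carrier (log2 fold change -0.50, standard error 0.22).

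Over all 83 consensus regions 53 lay above 0 and the median log2 fold change was 0.06, beside 51.7% above 0 and a median of 0.01 in the series. The groups were apart upward in 15 and downward in 13 (18.1% and 15.7%, where the series had 14.0% and 17.5%). The fit over all 50771 regions called 0 of the 83, as it called 0.0% of the series. At an unadjusted p under 0.05 stood 6 of the 83, where 4.48% of all regions did. DESeq2 called 1 of the 65 member regions for which it gave an adjusted p, the PRKCE region at 341 kb, where it called 0.0653% of the regions it adjusted. Nothing is read from these counts, since this comparison chose the genes. Without Inflachromene 11 edgeR called 9 of the 83, each higher (3 in PRKCE, 5 in or beside PRKCH and 1 in PRKCA), where 5.48% of all regions were called as higher. Without Inflachromene 35 it called 1, the PRKCE region at 341 kb, where 0.313% of all regions were called as higher. A group left with 1 library is taken to vary like the other group.

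**Figure D5:**
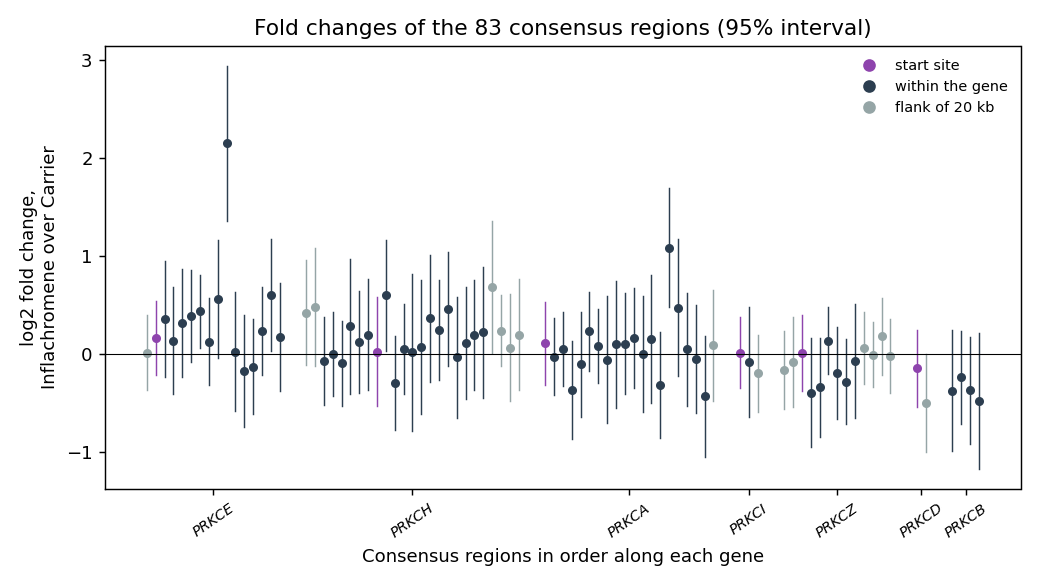
Log2 fold change, Inflachromene over Carrier, of each of the 83 consensus regions in order along the 7 genes, with 95% intervals from the edgeR fit. The PRKCE region at 2.15 stands above the others, followed by the PRKCA region at 1.09, and the start sites lie between -0.15 and 0.17.

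The 103 regions without a peak in all libraries could not be tested and are given as presence. Peaks in Inflachromene 11 and 35 with none under Carrier were found at 9 regions (4.84% of 186, beside 3.64% of the series), 4 of them at PRKCE, 3 in PRKCA and 2 in PRKCH. The strongest lay 1.75 kb before the PRKCE start site (45649530 to 45650314), with 12.7 and 12.6 CPM under Inflachromene. That region also lies at the start site of LOC102724965, so its level cannot be assigned to 1 gene. The reverse held for 3 regions (1.61%, beside 1.60%), 2 at PRKCH and 1 in PRKCZ. Inflachromene 35 alone had a peak in 30 regions (16.1%, beside 15.3% of the series), and 12 of these were at PRKCE.

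The region of other genes most like the PRKCE region at 341 kb in its levels over the 4 libraries was the start site of HS3ST1, a heparan sulfate sulfotransferase. It had 11.002 and 16.2 CPM under Inflachromene against 2.85 and 5.85 CPM under Carrier, at a Euclidean distance of 0.583 between centred log2(CPM + 1) profiles. DNMBP (0.663), SYT9 (0.725), THRB (0.827) and ALCAM (0.909) came next. The likeness rests on 4 libraries and was searched among start sites of protein-coding genes.

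The wider diacylglycerol pathway was read at start sites from a list of 54 genes, of which 41 had a listed start site and 36 a consensus region there. edgeR and DESeq2 each called 0 of the 36 between Inflachromene and Carrier, and 0 had an unadjusted p under 0.05, where 0.0% and 1.54% of start sites did. The median log2 fold change was 0.02, with 21 above 0, beside a median of 0.05 over all start sites. Among phospholipases C, which make diacylglycerol, 4 were measured: PLCD3 stood at -0.29 (standard error 0.18), PLCB3 at 0.14 (0.18) and PLCG2 at -0.14 (0.20). Of the 5 diacylglycerol kinases, which remove it, DGKZ stood at 0.23 (0.20), DGKA at 0.11 and DGKE at -0.06. The regions of PLCD3 and DGKA are also start-site regions of ACBD4 and PYM1, so their levels cannot be assigned to a single gene.

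Of 6 related kinases PRKD3, a kinase that protein kinase C activates, stood at 0.20 (standard error 0.20), PRKCQ, the form theta, at -0.24 (0.24) and PRKD1 at 0.16 (0.20). Of 6 priming kinases, their partners and phosphatases, the mTORC2 subunit RICTOR had 43.9 and 35.3 CPM under Inflachromene against 48.3 and 47.7 CPM under Carrier (-0.28, 0.16). PPP2CA stood at 0.12 and MAPKAP1 at -0.13. Of 7 partners and scaffolds ECT2 stood at 0.12, AKAP12 at -0.11 and the polarity gene LLGL1 at -0.08. Of 8 substrates and effectors RASGRP3 stood at 0.21 (0.20), MARCKSL1 at -0.17 (0.28) and ADD3 at 0.11 (0.18). Between 9p-low and other nuclei (limit at 0.75 times the library median) edgeR called 3 of the 34 tested, where 6.42% of the start sites of protein-coding genes were called. They were DGKZ (0.45, standard error 0.11, adjusted p = 0.0209) and PLCB3 (0.46, 0.12, adjusted p = 0.0302) as higher and PARD6G, a PAR6 partner of the atypical forms, as lower (-0.58, 0.11, adjusted p = 0.00460).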

How the data were processed

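For each library the authors deposited peaks, called per library and without scores, and raw counts for every peak in every barcode, made with Cell Ranger ATAC 2.1.0 per the file headers. The submitters' processing notes also name Cell Ranger ARC and GRCh38, with no settings stated. Overlapping peaks (at least 1 bp; autosomes and X) were joined into regions, and each library's counts were added up over the peaks it has there. Between 82.4% and 84.9% of entries were even, so counts are not independent and intervals from them are too narrow. Start sites came from RefSeq's promoter table, and a region within 1000 bp of one is a start-site region. Genes of the list without an entry were not analysed here.

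Sums over all barcodes were tested in edgeR 4.0.16 (R 4.3.3) with TMM factors, filterByExpr, quasi-likelihood F tests and Benjamini-Hochberg adjustment over all regions at 0.05. The code was tested on simulated data. DESeq2 1.42.0 was the other tool. Within each gene the 3 most open regions and those of highest and lowest fold change are named, with up to 3 genes per role of the pathway by smallest unadjusted p. Between 4.91% and 15.7% of deep nuclei had a 9p share between 0.7 and 0.8 times the median, near the limit. The genes and lists were chosen with earlier results of these data known. Python 3.11.15 and scipy 1.17.1 were used.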

Additional observations from a re-analysis of the deposited data

How the results depend on the processing

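Between Inflachromene and Carrier, DESeq2 called 28 consensus regions and 1 region of the protein kinase C genes, where edgeR called 0 of each. Leaving out 1 library gave between 0 and 3180 regions (3180 without Inflachromene 11, 299 without Inflachromene 35, 5 without Carrier 31), and between 0 and 9 regions of these genes. The other 9 settings tried (DESeq2 size factors, no filter, deep barcodes, barcodes in place of counts, an overlap of 200 bp, window offsets, nuclei that are not 9p-low, and 2 settings chosen after seeing the data) gave 0 of both. The log2 fold change of the PRKCE region at 341 kb lay between 1.92 and 2.29 in these settings and with DESeq2, and between 1.53 and 2.57 with a library left out. Among deep barcodes, where few names are shared between libraries, it was 2.12, and with names found in 1 library alone 2.05. The latter setting left out 58.4% and 61.9% of the consensus counts of Carrier 12 and 31. Under Inflachromene 11 and 35 it left out 3.26% and 1.33%. Between 9p-low and other nuclei, 1912 regions were called: 267 at a threshold of 0.65, 4023 at the common limit of 1.2%, and between 313 (without Carrier 12) and 3102 (without Inflachromene 35) with a library left out, with 512 without Inflachromene 11 and 762 without Carrier 31. For the protein kinase C genes the count of 1 became 0 at the threshold of 0.65, 4 at the common limit, and between 0 (without Inflachromene 11) and 3 (without Inflachromene 35) with a library left out. Over 30 other named results, 378 of 416 values moved by less than the spread between replicates or kept their call; the cause of the rest was not tested. No paired analysis was possible because the groups share no replicate number. The PRKCE region at 341 kb rests on between 70 and 506 counts per library, and 2 libraries per group limit every interval.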
